A study of Homo sapiens with 12 samples.

Results

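The genes described here are those whose symbol begins with PSM, a letter from A to G and a number, without pseudogenes. They code for the subunits, assembly factors and regulators of the proteasome. Of 18417 genes with a row of their own on the arrays, 47 matched. Of these, 45 belong to the proteasome or act on it, and 2, PSMC3IP and PSME3IP1, carry the name only because their proteins bind PSMC3 and PSME3. PSMC5, PSMD7 and PSMD13 were not analysed here.

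The proteasome degrades proteins tagged with ubiquitin. Its core particle is a barrel of α rings (PSMA genes) around β rings (PSMB genes), and PSMB5, PSMB6 and PSMB7 hold the constitutive cutting sites. In blood cells, and in most cells after interferon-γ, these are exchanged for PSMB8, PSMB9 and PSMB10, which form the immunoproteasome and favour peptides for MHC class I. The regulatory particle that unfolds substrates is built from ATPases (PSMC) and non-ATPase subunits (PSMD), PSMG proteins assemble the core, and PSME proteins cap it in other forms.

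RNA was measured in HEL and UKE1, established human leukemia lines with the JAK2V617F mutation, on 12 Affymetrix Gene 1.0 ST arrays. The 4 groups of 3 arrays were HEL without drug, HEL with 250 nM ITF2357, UKE1 without drug and UKE1 with 250 nM ITF2357, each cultured for 6 h. ITF2357 (givinostat) inhibits histone deacetylases. The comparisons were the drug in each line, the difference between the 2 responses, and the untreated lines; the title of the series names proliferation, differentiation and apoptosis as its subject, not protein breakdown. Horse serum and hydrocortisone were added to the medium of UKE1 but not to that of HEL. The series calls the arrays independent triplicates and says no more of how cultures were kept apart, so a p-value here reflects only how far these samples scatter, which may be technical. Arrays measure the RNA of all cells together, so a change in fewer cells and a change in RNA per cell cannot be told apart.

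Levels are the deposited values on a log2 scale, on which a difference of 1 is a doubling, and folds are taken only within a gene. The arrays had medians between 6.41 and 6.50, and arrays of a group correlated at 0.994 to 0.996. Of 5 measured erythroid markers, 4 were lower and 1 was higher in untreated UKE1 than in untreated HEL. The heme enzyme gene ALAS2 averaged 9.48 in untreated HEL and 5.96 in untreated UKE1, whereas AHSP, a chaperone of globin, was at 3.74 and 3.97. With drug, the erythroid factor genes GATA1 (-0.49 in HEL, -0.60 in UKE1) and KLF1 (-0.47 in HEL) fell, and the other erythroid markers were not called. The 3 T cell genes CD3D, CD3E and CD3G averaged 8.56 to 9.92 in untreated UKE1 against 4.16 to 4.96 in untreated HEL, and with drug all 3 fell in UKE1 (log2 changes of -0.40 to -0.21). Of 7 megakaryocyte markers, 4 fell in HEL and 5 in UKE1 with drug, and 6 were lower in untreated UKE1. The seventh, PPBP, a platelet chemokine gene, averaged 6.48 in untreated HEL and 10.52 in untreated UKE1. Of all genes tested, 42.4% were called in HEL and 44.3% in UKE1 with drug, and 67.7% between the untreated lines. The marker counts alone are therefore not read as a lineage result. The part of these marker differences in the results below was not tested.

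ITF2357 moved proteasome genes in both directions and mostly by small amounts. In HEL, 11 of the 47 genes rose, 16 fell and 20 did not pass the threshold (limma, adjusted p below 0.05). In UKE1, 9 rose, 13 fell and 25 did not pass. The background was as follows: of all genes tested, 42.4% were called in HEL (22.6% rose, 19.9% fell) and 44.3% in UKE1 (22.0% rose, 22.3% fell). Calls depend on signal, and 43 of the 47 had a mean array signal at or above that of the median gene; signals of different genes also reflect their probes. Among the 9209 genes at or above that signal, 63.2% were called in HEL and 63.6% in UKE1, against 62.8% and 51.2% of the 43 proteasome genes. The median absolute log2 change of the 43 was 0.21 in HEL and 0.17 in UKE1, and that of the 9209 genes was 0.28 and 0.29. The counts are thus near or below those of genes in the upper signal range, and nothing particular to the proteasome is read from them.

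Several calls were near the threshold. Without untreated HEL array 1 the falls in HEL numbered 10, and without untreated HEL array 3 the rises numbered 7. Without treated UKE1 array 3 the falls in UKE1 numbered 7. When each array was centred on its median, HEL had 8 rises and 19 falls. In HEL, 30 of the 47 genes had treated arrays wholly above or below the untreated ones, as had 49.0% of all genes. In UKE1 this held for 27, against 53.9% of all genes.

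**Figure D1:**
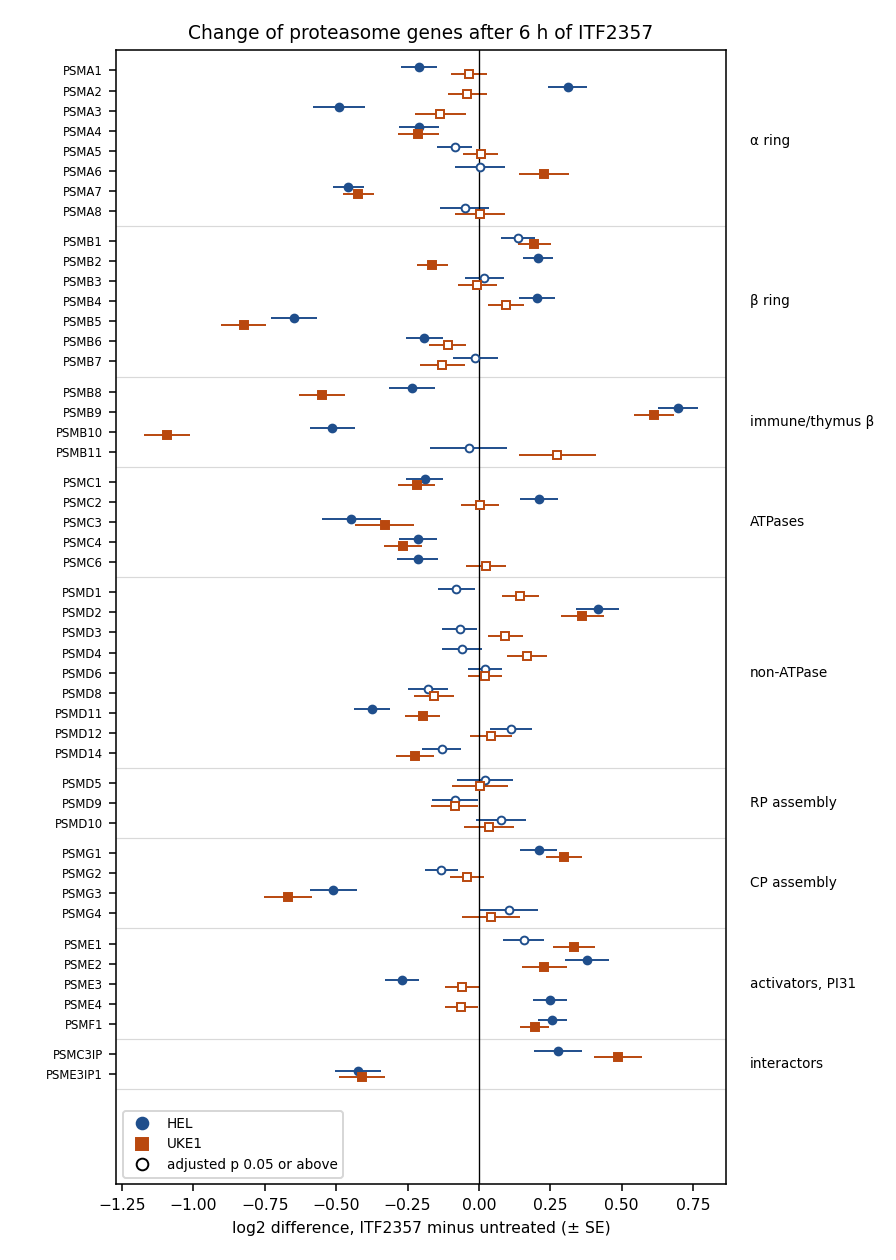
Log2 difference between ITF2357 and untreated cells for the 47 genes, by role, with standard errors of the fit; circles are HEL, squares UKE1, and open symbols did not pass the threshold. PSMB9 is farthest to the right in both lines (0.70 in HEL, 0.61 in UKE1), and PSMB5 in HEL (-0.65) and PSMB10 in UKE1 (-1.09) are farthest to the left.

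The calls of the 2 lines overlapped in part. Of the 47 genes, 11 fell in both lines, which is 11 of the 16 that fell in HEL and of the 13 that fell in UKE1, and 6 rose in both, out of 11 and 9. The genes that fell in both were PSMA4, PSMA7, PSMB5, PSMB8, PSMB10, PSMC1, PSMC3, PSMC4, PSMD11, PSMG3 and PSME3IP1. PSMB9, PSMC3IP, PSMD2, PSME2, PSMF1 and PSMG1 rose in both. PSMB2 alone was called in opposite directions, and 16 genes were called in neither line. The 2 drug comparisons share no arrays but share 1 estimate of the spread. How often all genes tested were called alike in both lines is not given here. Nothing particular to the proteasome is therefore read from these counts.

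The widest movements were in the catalytic β subunits, and the 3 immune forms did not move together: PSMB9 rose while PSMB8 and PSMB10 fell. PSMB8, PSMB9 and PSMB10, with PSME1 and PSME2, the subunits of the PA28 cap, are the classical interferon-γ-induced proteasome genes. Their upstream sequences are shown because genes of this one induction programme went different ways. Each is the 250 bases before the RefSeq start site (GRCh38.p14), 5′ to 3′ on the strand of the gene, at chr6:32853942-32854191 (plus strand) for PSMB9, chr6:32844680-32844929 (minus strand) for PSMB8, chr16:67936851-67937100 (minus strand) for PSMB10, chr14:24135944-24136193 (plus strand) for PSME1 and chr14:24146611-24146860 (minus strand) for PSME2. Capitals mark matches, on either strand, to CCAAT (bound by NF-Y), TGACNNNGC (core of the antioxidant response element) or the core of the interferon-stimulated response element (ISRE; TTTC, any 2 bases, TTTC).
PSMB9: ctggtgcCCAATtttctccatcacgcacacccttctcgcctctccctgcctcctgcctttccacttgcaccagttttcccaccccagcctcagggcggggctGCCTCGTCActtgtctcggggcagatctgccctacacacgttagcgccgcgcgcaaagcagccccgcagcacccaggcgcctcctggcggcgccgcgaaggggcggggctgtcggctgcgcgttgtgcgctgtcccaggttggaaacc
PSMB8: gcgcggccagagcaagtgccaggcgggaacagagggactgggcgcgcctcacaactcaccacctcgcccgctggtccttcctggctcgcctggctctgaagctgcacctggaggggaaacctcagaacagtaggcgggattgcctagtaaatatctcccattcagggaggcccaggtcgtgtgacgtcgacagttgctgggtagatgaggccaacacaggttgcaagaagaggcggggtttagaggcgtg
PSMB10: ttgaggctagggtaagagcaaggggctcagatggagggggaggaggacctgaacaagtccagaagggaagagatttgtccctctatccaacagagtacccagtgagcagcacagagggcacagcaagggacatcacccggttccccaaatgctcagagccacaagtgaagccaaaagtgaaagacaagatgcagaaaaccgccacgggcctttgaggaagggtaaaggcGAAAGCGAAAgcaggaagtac
PSME1: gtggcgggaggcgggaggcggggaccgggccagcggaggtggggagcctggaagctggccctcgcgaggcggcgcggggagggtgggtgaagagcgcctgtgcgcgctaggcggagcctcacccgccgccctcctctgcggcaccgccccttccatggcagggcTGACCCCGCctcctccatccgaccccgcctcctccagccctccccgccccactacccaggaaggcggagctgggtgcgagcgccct
PSME2: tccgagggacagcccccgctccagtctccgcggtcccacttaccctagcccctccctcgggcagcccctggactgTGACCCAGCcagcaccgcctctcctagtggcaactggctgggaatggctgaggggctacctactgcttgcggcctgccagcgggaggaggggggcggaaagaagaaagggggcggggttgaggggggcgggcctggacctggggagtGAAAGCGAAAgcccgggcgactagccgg

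In these letters, the ISRE core stands on the opposite strand of PSMB10, from 21 bases before the start, and of PSME2, from 28 bases before it. PSME1 has it at base 6 after the start, outside the printed stretch, and the windows of PSMB8 and PSMB9 do not hold it. TAP1, the peptide transporter gene, starts 488 bases from PSMB9 on the other strand, and its own window holds 2 overlapping matches, from 134 and 128 bases before its start. TGACNNNGC is found in PSMB9, PSME1 and PSME2 and CCAAT in PSMB9. Over windows of 300 bases, 250 before and 50 from the start on, the ISRE core was present in 6 of the 41 members with a RefSeq window (14.6%) and in 3.65% of 27305 promoters. TGACNNNGC was present in 31.7% of members and 13.6% of promoters, and CCAAT in 46.3% and 35.7%. TGACNNNGC matched in 1 of 13 members that fell in HEL, 4 of 11 that rose and 8 of 17 not called. For CCAAT these counts were 5, 6 and 8, and for the ISRE core 2 in each. In UKE1, TGACNNNGC matched in 1 of 11 that fell, 4 of 8 that rose and 8 of 22 not called. CCAAT matched there in 5, 3 and 11, and the ISRE core in 2 of each. The 6 members without a window are left out, and these splits were not tested. The 27305 promoters include genes not tested here and were not matched for signal, so the shares compare unlike sets. These matches describe letters, not binding.

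PSMB9, the immune counterpart of PSMB6, rose in both lines. In HEL it read 9.84, 9.73 and 9.68 without drug and 10.38, 10.46 and 10.50 with it, and in UKE1 7.80, 7.67 and 7.62 against 8.26, 8.29 and 8.39. All treated arrays lay above all untreated arrays of the same line, by a log2 change of 0.70 ± 0.0708 in HEL (SE, 1.62-fold, adjusted p = 2.18e-06) and 0.61 ± 0.0708 in UKE1 (1.53-fold, adjusted p = 6.58e-06). The responses of the lines differed by -0.08 ± 0.10 (adjusted p = 0.611). Its 3 rows on the array hold identical values, so they are 1 measurement.

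PSMB8, the counterpart of PSMB5 and a neighbour of PSMB9 in the MHC region, went down. Its values in HEL were 9.37, 9.15 and 9.24 untreated and 9.03, 9.01 and 9.02 treated, and in UKE1 8.52, 8.64 and 8.54 untreated and 8.11, 8.10 and 7.84 treated. The groups did not overlap in either line. The fall was 0.23 on the log2 scale in HEL (SE 0.0802, adjusted p = 0.0297) and 0.55 in UKE1 (SE 0.0802, 1.46-fold, adjusted p = 5.86e-05). The HEL call was lost when untreated HEL array 1 or 3 or any 1 treated HEL array was left out. The responses differed by -0.32 ± 0.113 (adjusted p = 0.0598), which passed in 4 of 19 alternatives, among them without untreated HEL array 1 or without treated UKE1 array 1.

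PSMB10, the counterpart of PSMB7, fell in both lines, and further in UKE1. In HEL its arrays read 7.52, 7.56 and 7.62 without drug and 7.17, 6.93 and 7.07 with it; in UKE1 they read 7.80, 7.76 and 7.71, then 6.68, 6.79 and 6.51. Neither line had overlapping groups. The log2 change was -0.51 ± 0.0796 in HEL (SE, 1.43-fold, adjusted p = 0.000109) and -1.09 ± 0.0796 in UKE1 (2.13-fold, adjusted p = 9.19e-08). The difference between the responses, -0.58 ± 0.113, passed the threshold (adjusted p = 0.00204).

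Among the constitutive cutting subunits, PSMB5, the chymotrypsin-like site, fell most. HEL arrays read 8.87, 8.92 and 8.87 untreated and 8.10, 8.31 and 8.30 treated, and UKE1 arrays 8.43, 8.47 and 8.22 untreated and 7.61, 7.58 and 7.46 treated. Every treated array lay below the untreated ones, with log2 changes of -0.65 ± 0.0796 (SE, 1.57-fold, adjusted p = 1.25e-05) and -0.82 ± 0.0796 (1.77-fold, adjusted p = 1.24e-06). PSMB6, the caspase-like site, went from 9.53, 9.54 and 9.56 to 9.38, 9.26 and 9.42 in HEL, a fall of 0.19 on the log2 scale (SE 0.0652, adjusted p = 0.0295) that was not called without untreated HEL array 2 or 3 or treated HEL array 2. In UKE1 the PSMB6 groups, at 9.72, 9.62 and 9.59 and at 9.48, 9.63 and 9.49, overlapped (-0.11 ± 0.0652, adjusted p = 0.206). PSMB7, the trypsin-like site, read 10.66, 10.49 and 10.41 untreated and 10.47, 10.44 and 10.61 treated in HEL, and 10.68, 10.69 and 10.70 against 10.65, 10.59 and 10.44 in UKE1. Its groups overlapped in HEL and not in UKE1, and its log2 changes of -0.01 ± 0.0787 and -0.13 ± 0.0787 did not pass (adjusted p = 0.923 and 0.219). Without untreated HEL array 1 or treated HEL array 1 or 2 the HEL value turned positive.

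**Figure D2:**
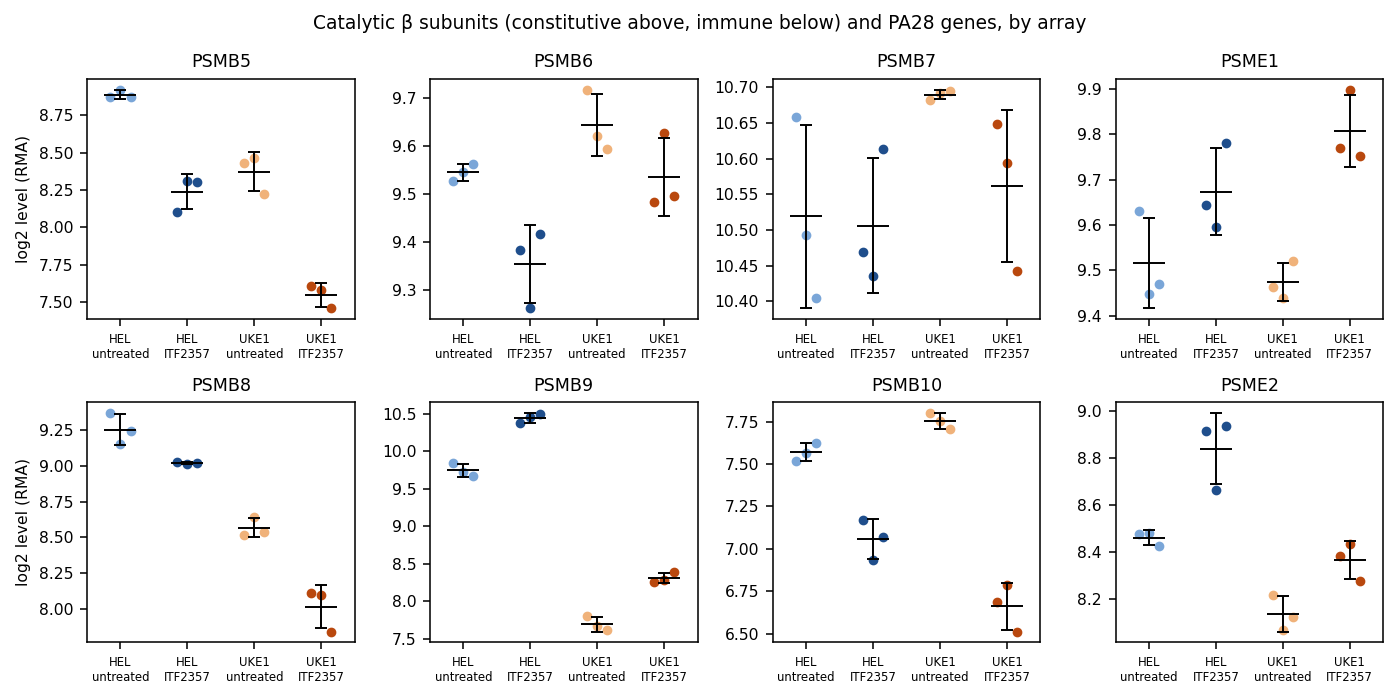
Log2 level on each array (points), with mean and SD of 3 arrays (bars), for the constitutive catalytic subunits above their immune counterparts and for PSME1 and PSME2; each panel has its own vertical axis. PSMB9 is higher with drug in both lines, whereas PSMB5, PSMB8 and PSMB10 are lower with drug in both lines.

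Set against its constitutive partner within each array, each immune form shifted in its own way. This difference removes a shift common to all genes of an array, but not scaling that depends on signal. The pair values were taken from the deposited values only. The log2 difference PSMB9 minus PSMB6 rose by 0.89 in HEL, from 0.11 to 0.31 on the untreated arrays to 0.99 to 1.19 on the treated ones, and by 0.72 in UKE1. PSMB8 minus PSMB5 rose by 0.41 and 0.27, as PSMB5 fell by more than PSMB8. PSMB10 minus PSMB7 fell by 0.50 in HEL and 0.96 in UKE1. For each of the 3 pairs, in both lines, all treated arrays lay on 1 side of the untreated ones. Only the shifts can be read, since probe sets differ in their response, and these values were not tested.

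Of the PA28 genes PSME2 and PSME1, PSME2 rose in both lines, as PSMB9 did, and PSME1 rose in UKE1 only. PSME2 read 8.48, 8.48 and 8.42 untreated and 8.92, 8.66 and 8.94 treated in HEL, and 8.22, 8.07 and 8.12 against 8.38, 8.43 and 8.28 in UKE1. It rose by 0.38 ± 0.078 (SE, 1.30-fold, adjusted p = 0.00117) and 0.23 ± 0.078 (1.17-fold, adjusted p = 0.0278), with no overlap in either line. The UKE1 call was lost without untreated UKE1 array 2 or 3 or treated UKE1 array 1 or 2. PSME1, its partner, went from 9.46, 9.44 and 9.52 to 9.77, 9.90 and 9.75 in UKE1, a rise of 0.33 ± 0.0722 (adjusted p = 0.00163). In HEL its groups overlapped, at 9.63, 9.45 and 9.47 and at 9.64, 9.60 and 9.78 (0.16 ± 0.0722, adjusted p = 0.10), and the difference passed in 3 of 20 alternatives, among them without untreated HEL array 1.

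Among the other caps and the inhibitor, PSMF1, which codes for the inhibitor PI31, rose in both lines (0.26 in HEL, 0.20 in UKE1, log2). PSME3, the nuclear PA28γ cap, fell in HEL (-0.27, adjusted p = 0.00199) and was not called in UKE1 (-0.06, adjusted p = 0.481). PSME4, the PA200 cap, read 10.25, 10.32 and 10.26 without drug and 10.53, 10.60 and 10.44 with it in HEL, and 9.62, 9.67 and 9.60 against 9.59, 9.54 and 9.58 in UKE1. No groups overlapped, but only the rise in HEL passed (0.25 ± 0.0594, adjusted p = 0.00337; UKE1 -0.06, adjusted p = 0.457), and the responses differed by -0.31 ± 0.084 (adjusted p = 0.016).

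In the α rings, 1 of 8 genes rose and 4 fell in HEL, and 1 rose and 2 fell in UKE1. The called shares were 62.5% and 37.5%, against 42.4% and 44.3% of all genes. At or above the median level, 63.2% and 63.6% of genes were called. PSMA7 fell alike in both lines, from 10.93, 10.87 and 10.91 to 10.46, 10.43 and 10.45 in HEL and from 9.87, 9.83 and 9.82 to 9.46, 9.42 and 9.37 in UKE1. No groups overlapped, and the changes were -0.46 ± 0.054 (SE, adjusted p = 8.7e-06) and -0.42 ± 0.054 (adjusted p = 1.72e-05). PSMA3 fell in HEL, from 10.33, 10.09 and 10.21 to 9.78, 9.77 and 9.61 (-0.49 ± 0.0908, adjusted p = 0.000497). In UKE1, at 9.74, 9.97 and 9.98 untreated and 9.87, 9.79 and 9.62 treated, its groups overlapped (-0.13 ± 0.0908, adjusted p = 0.267), and the difference between responses had an adjusted p = 0.0614. PSMA2 was steady on the UKE1 arrays (8.34, 8.45 and 8.25, then 8.27, 8.42 and 8.22) and rose in HEL from 8.29, 8.33 and 8.28 to 8.60, 8.63 and 8.61. Its HEL change was 0.31 ± 0.0683 (adjusted p = 0.00189), and the responses differed by -0.35 ± 0.0966 (adjusted p = 0.0172), a call lost after quantile normalization. The calls of PSMA1 and PSMA4 in HEL and of PSMA4 and PSMA6 in UKE1 were each lost on leaving out at least 1 array. The PSMA6 call held in only 9 of 20 alternatives and was lost after median centring and without several HEL arrays. PSMA8, the testis form, stayed between means of 2.98 and 3.14 in all groups.

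The structural β subunits moved little. PSMB2 went from 11.38, 11.33 and 11.39 to 11.55, 11.56 and 11.60 in HEL and from 11.08, 11.06 and 11.03 to 10.85, 10.93 and 10.89 in UKE1, so that neither pair of groups overlapped and the lines moved apart. The changes were 0.21 ± 0.0539 (SE, adjusted p = 0.00622) and -0.16 ± 0.0539 (adjusted p = 0.0239), and their difference, -0.37 ± 0.0762, had an adjusted p = 0.00303. The UKE1 fall was lost after quantile normalization and without untreated UKE1 array 1 or 2 or treated UKE1 array 1 or 3. PSMB4 rose in HEL (0.20) and PSMB1 in UKE1 (0.19, both log2), and these calls were lost without untreated array 3 or treated array 1 of HEL (PSMB4 also after median centring), and without untreated array 3 or treated array 2 of UKE1. PSMB11, the thymus form, was called in neither line.

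The ATPases of the regulatory particle were called in HEL in all 5 measured cases, with 4 down and 1 up, and in UKE1 in 3 cases, all down. Of genes at or above the median level, 63.2% were called in HEL and 63.6% in UKE1. With 5 genes, nothing particular to the ATPases is read from these counts. PSMC3 changed by -0.45 in HEL and -0.33 in UKE1, PSMC4 by -0.21 and -0.27, and PSMC1 by -0.19 and -0.22 (all log2). PSMC2 rose in HEL by 0.21. The PSMC6 fall in HEL (-0.21) rests on 1 of its 2 rows: the other row gave -0.07, and the mean of both was not called. For PSMC1, PSMC2, PSMC4 and PSMC6 the HEL call was lost on leaving out at least 1 HEL array. In UKE1 the PSMC1 and PSMC3 calls were lost without treated UKE1 array 3. The PSMC3 call was also lost without untreated array 3 or treated array 1.

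Of 9 non-ATPase subunits, 1 rose and 1 fell in HEL, and 1 rose and 2 fell in UKE1. That is 22.2% and 33.3% called, below the 42.4% and 44.3% of all genes. PSMD2, the ubiquitin-receptor scaffold of the base, rose in both lines (0.42 and 0.36), and PSMD11, a lid subunit that braces the regulatory particle against the core, fell in both (-0.37 and -0.20). PSMD14, the deubiquitinase of the lid, fell in UKE1 (-0.22, adjusted p = 0.0141) and was not called in HEL (-0.13, adjusted p = 0.146). In UKE1 the PSMD11 and PSMD14 calls were lost without treated UKE1 array 3. The PSMD11 call was also lost without untreated array 1 or treated array 2, and the PSMD14 call without untreated array 2.

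Assembly factors of the regulatory particle (PSMD5, PSMD9 and PSMD10) were called in neither line, with log2 changes between -0.09 and 0.08 and 0 of 3 at an unadjusted p below 0.05 (limma). Of the 4 chaperones that build the core, PSMG3 fell in both lines, and PSMG4, its dimer partner, was called in neither. PSMG3 read 8.84, 8.62 and 8.80 untreated and 8.37, 8.07 and 8.30 treated in HEL, and 8.13, 8.0 and 8.11 against 7.41, 7.46 and 7.37 in UKE1. Its treated arrays were below all untreated ones in both lines (-0.51 ± 0.0834, adjusted p = 0.000173; -0.67 ± 0.0834, adjusted p = 1.4e-05). PSMG1 rose by 0.21 in HEL (lost after median centring and without untreated HEL array 3 or treated HEL array 1) and by 0.30 in UKE1, while PSMG2, its dimer partner, was not called in either (-0.13 and -0.04).

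Both name-sharing genes were called in both lines. PSMC3IP, which acts in homologous recombination, went from 9.21, 9.0 and 8.89 to 9.20, 9.40 and 9.33 in HEL, where 1 treated array lay within the untreated range (0.28 ± 0.0842, adjusted p = 0.0158; lost without untreated HEL array 3 or treated HEL array 2). In UKE1 it went from 9.25, 9.16 and 9.28 to 9.71, 9.78 and 9.65 without overlap (0.49 ± 0.0842, adjusted p = 0.000271). PSME3IP1 fell from 8.96, 8.90 and 8.84 to 8.61, 8.35 and 8.47 in HEL and from 9.72, 9.73 and 9.60 to 9.35, 9.34 and 9.13 in UKE1, also without overlap (-0.42 and -0.41).

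Between the responses of the 2 lines, 4 of the 47 genes passed the threshold, PSMB10, PSMB2, PSMA2 and PSME4, each more negative in UKE1. None of the 47, or 0, was more positive in UKE1 by limma's adjusted p, and 5 were at an unadjusted p below 0.05. Of all genes tested, 23.9% passed (10.1% more positive, 13.8% more negative), and of genes at or above the median level 31.5%, against 9.30% of the 43 proteasome genes at that level. After quantile normalization 3 genes were called more positive and 3 more negative. Each response difference contains the same arrays as the drug comparisons above.

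Without drug, most called proteasome genes were lower in UKE1 than in HEL, and PSMD5 was lower by far. Of the 47 genes, 8 were higher and 25 lower in UKE1, where 67.7% of all genes were called (33.3% higher, 34.4% lower), and the arrays did not overlap for 38 of the 47 (69.4% of all genes). The median log2 difference was -0.18 for the 47 and -0.0005 for all genes. At or above the median level, 77.1% of genes were called, against 69.8% of the 43 proteasome genes there. The medians of these 2 sets were -0.043 and -0.18. The balance depended on the scaling: after quantile normalization 14 were higher and 21 lower, with a median of -0.04. Small differences are therefore not read as a lower proteasome level in UKE1.

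PSMD5, a chaperone that binds the ATPase PSMC2 and helps build the regulatory particle, read 9.56, 9.56 and 9.39 on untreated HEL arrays and 3.31, 3.66 and 3.52 on untreated UKE1 arrays. With drug it read 9.45, 9.62 and 9.50 in HEL and 3.36, 3.48 and 3.66 in UKE1. The UKE1 readings lay near those of DCN, from the 3 fibroblast markers (means of 2.95 and 3.09 without drug in HEL and UKE1). They also lay near those of ALB, from the 3 hepatocyte markers (3.58 and 3.76). The other markers of these lists are not given here. Signals of different genes also reflect their probes, so this nearness does not set a floor. The log2 difference was -6.00 ± 0.0979 (SE, adjusted p = 2.67e-15), an estimate of 64.2-fold lower in UKE1. Leaving out an array gave -6.09 to -5.91. If the UKE1 readings are at a floor, this estimate is too small. The drug changes of 0.02 in HEL and 0.0026 in UKE1 did not pass (adjusted p = 0.894 and 0.987), and both turned negative after median centring. No detection flag is given, so whether the UKE1 signal exceeds background was not tested.

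The nearest measured genes on either side of PSMD5, looked up after its value was seen, did not share this gap. FBXW2 differed by 0.20 and PHF19 by 0.83, both higher in UKE1, while MEGF9 (-0.98) and TRAF1 (-0.48) were lower. The gap at PSMD5 was thus far wider than that at any of these 4 neighbours.

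**Figure D3:**
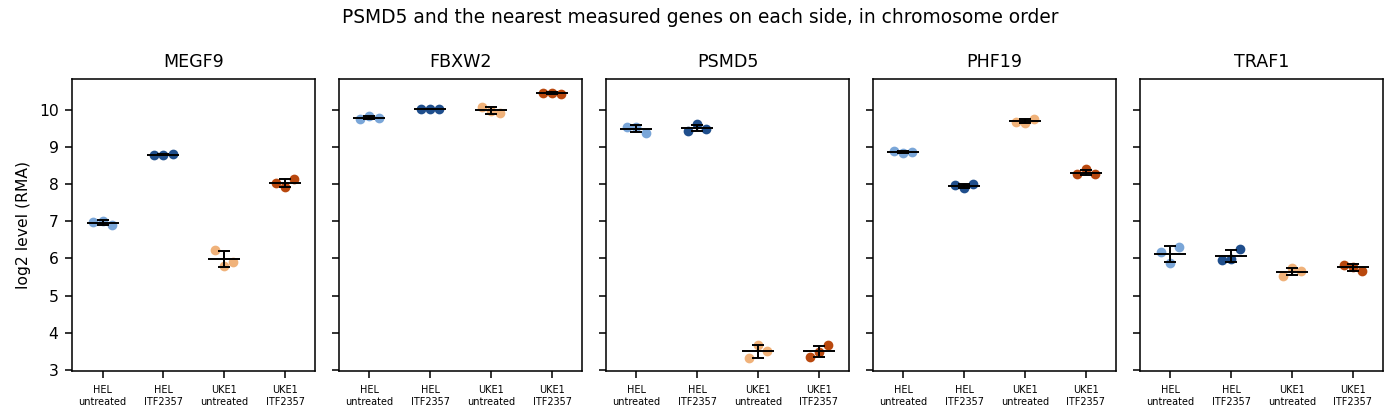
Log2 level on each array (points), with mean and SD of 3 arrays (bars), for PSMD5 and the 2 nearest measured protein-coding genes on each side, in chromosome order. PSMD5 sits near 9.50 in HEL and near 3.50 in UKE1 with or without drug, and levels of different genes are not to be compared.

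PSMB9 had the next widest gap, 2.05 lower in UKE1 on the log2 scale (-2.05 ± 0.0708, 4.14-fold, adjusted p = 6.05e-12), with no overlap between any HEL and any UKE1 array. The treated UKE1 arrays, at 8.26 to 8.39, stayed below the untreated HEL arrays, at 9.68 to 9.84. PSMB8 was also lower in UKE1 (-0.69 ± 0.0802, adjusted p = 3.38e-06) and PSME2 too (-0.32 ± 0.078, adjusted p = 0.00215), whereas PSMB10 (0.18, adjusted p = 0.0549; it passed in 8 of 20 alternatives) and PSME1 (-0.04, adjusted p = 0.622; 0.05 after quantile normalization) did not pass. PSMA7 was lower in UKE1 (-1.07 ± 0.054, 2.09-fold, adjusted p = 3.97e-10), at 9.82 to 9.87 against 10.87 to 10.93. PSMB5 was lower by 0.51 (adjusted p = 5.37e-05).

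A few genes went the other way. PSMG2, a core chaperone, was higher in UKE1, at 9.57, 9.61 and 9.56 against 8.56, 8.39 and 8.43 (1.12 ± 0.0592, 2.17-fold, adjusted p = 6.31e-10). PSMC6 read 9.65, 9.65 and 9.63 against 8.98, 8.99 and 8.83 (0.71 ± 0.0715, adjusted p = 7.24e-07), and its other row gave 0.86. PSME3IP1 was higher by 0.78 ± 0.0809 and PSMG4 by 0.70 (log2). The groups of PSMG2, PSMC6 and PSME3IP1 did not overlap.

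**Figure D4:**
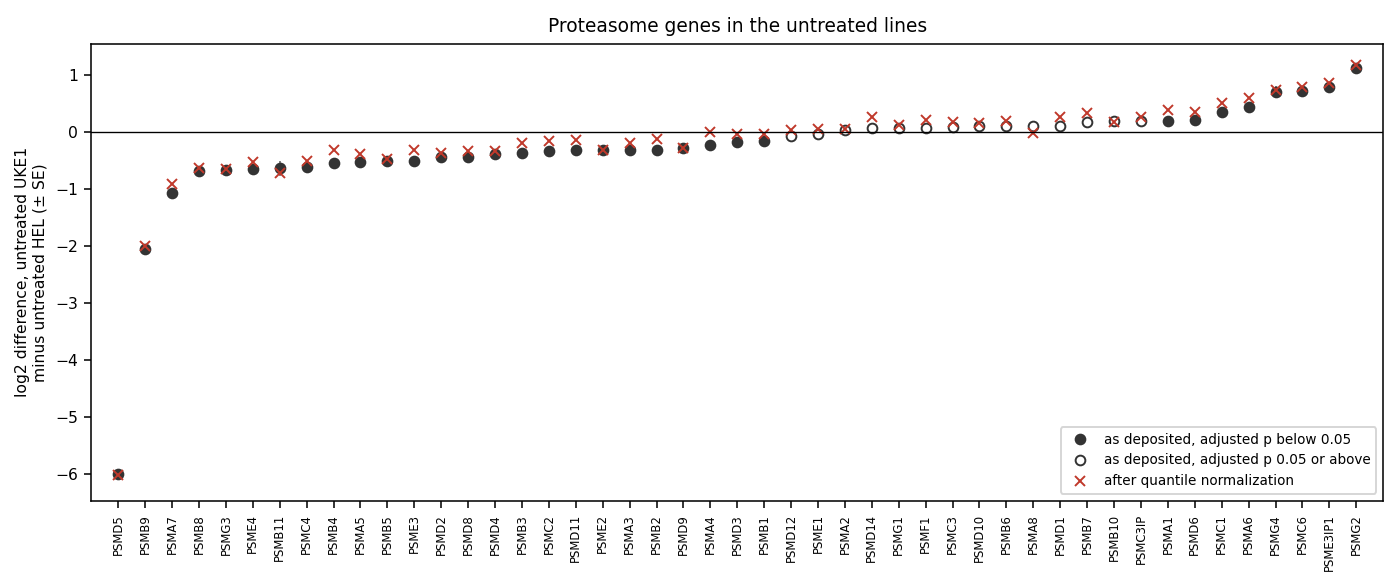
Log2 difference of untreated UKE1 minus untreated HEL for the 47 genes in rank order, with standard errors of the fit mostly smaller than the symbols; filled circles passed the threshold, open ones did not, and crosses are the same genes after quantile normalization. PSMD5 (-6.00) and PSMB9 (-2.05) stand apart under both scalings.

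Proteasome partners without a PSM symbol were also mixed: of 17, 3 rose and 6 fell in HEL and 5 rose and 6 fell in UKE1. These are 52.9% and 64.7% called, against 42.4% and 44.3% of all genes. Among genes at or above the median level the shares were 63.2% and 63.6%. ECPAS, which tethers the regulatory particle to the core, fell in both lines (-0.85 and -1.07, adjusted p = 1.39e-07 and 1.39e-08), and PITHD1, a proteasome-binding protein, rose in both (0.45 and 0.53). UBE3A, a ubiquitin ligase, fell in both (-0.62 and -0.50), and RNF181, another ligase, rose in both (0.55 and 0.37). UBLCP1, a phosphatase of the nuclear proteasome, rose by 0.45 in HEL and 0.92 in UKE1. AKIRIN2, which brings proteasomes into the nucleus, rose in UKE1 (0.44) and was not called in HEL (0.03), a difference of 0.41 (adjusted p = 0.00361).

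Of 8 measured regulators of proteasome gene transcription, 1 rose and 4 fell in HEL and 1 rose and 2 fell in UKE1. The shares called were 62.5% and 37.5%, beside 42.4% and 44.3% of all genes. For genes at or above the median level they were 63.2% and 63.6%. MAFG, a small partner of NFE2L1 and NFE2L2, fell in both lines (-0.51 and -0.77), as did NFYC, an NF-Y subunit (-0.67 and -0.64). NFYA, the DNA-binding NF-Y subunit, fell in HEL (-0.70) and rose in UKE1 (0.42), a difference of 1.12 (adjusted p = 1.03e-06). NFE2L2, the antioxidant response factor, fell in HEL (-0.28) and was not called in UKE1 (0.04). NFE2L1, the factor that restores proteasome genes after proteasome inhibition, had log2 changes of 0.01 and 0.14 (adjusted p = 0.931 and 0.0889) and was looked up outside the rule for named genes, as was the HEL value of MAFF, another small MAF factor, which rose (0.34, adjusted p = 0.0162).

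Of 10 measured genes of MHC class I loading and immunoproteasome induction, 4 rose and 3 fell in HEL and 4 rose and 5 fell in UKE1. Called were thus 70% and 90%, against 42.4% and 44.3% of all genes, in both directions. Among genes at or above the median level, 63.2% and 63.6% were called. With 10 genes, nothing particular to this list is read from these counts. TAP1, the neighbour of PSMB9, rose in HEL by 0.51 (adjusted p = 3.5e-06) and by less in UKE1 (0.19, adjusted p = 0.0108), a difference of -0.32 (adjusted p = 0.00848). IRF1, a transcription factor that acts on PSMB9 and TAP1, rose in both lines (0.51 and 0.42). TAPBPL, a peptide editor, fell in both (-0.90 and -1.08). ERAP2, a trimming peptidase, rose in HEL (0.75) and fell in UKE1 (-0.25). Without drug, 5 of the 10 were lower in UKE1 and 4 were higher. There 67.7% of all genes were called, and 77.1% of genes at or above the median level. TAP1 (-1.46), TAP2 (-1.15), IRF1 (-1.58) and B2M (-1.19), the light chain of MHC class I, were among the lower ones, and ERAP1 (0.74), ERAP2 (0.76), TAPBP (0.18) and TAPBPL (0.43) were the higher ones.

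Ubiquitin genes and stress chaperones completed the pathway. Of 12 genes for ubiquitin, its activation and delivery, 4 rose and 3 fell in HEL and 4 rose and 5 fell in UKE1. Here 58.3% and 75% were called, against 42.4% and 44.3% of all genes. Among genes at or above the median level, 63.2% were called in HEL and 63.6% in UKE1. UFD1, a cofactor of the segregase VCP, rose in both lines (0.61 and 0.46), and UBQLN4, a shuttle to the proteasome, fell in both (-0.44 and -0.42). Of 13 chaperones of protein stress, 4 rose and 5 fell in HEL and 3 rose and 4 fell in UKE1. These are 69.2% and 53.8% called, against the same 42.4% and 44.3% of all genes. Nothing particular to either list is read from these counts. BAG3, a co-chaperone induced when the proteasome is blocked, rose in both (0.90 and 0.63), as did DNAJB1, an HSP70 co-chaperone (0.50 and 0.52). HSP90AA1, the inducible HSP90 form, fell in HEL (-0.47), and HSPH1 and DNAJA1, which serve HSP70, fell in both lines (-0.65 and -0.63 in UKE1, -0.23 and -0.24 in HEL).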

How the data were processed

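RNA was measured on 12 arrays, 3 for each of 4 groups taken from the sample descriptions. Per the submitters' processing notes, the authors made the deposited log2 values with Affymetrix Expression Console and RMA, of versions and a genome build not given here. The log2 base is taken from the range, 1.26 to 14.36, as it is not stated.

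Of 33297 rows, 19460 had 1 gene symbol in GEO's platform annotation, 1754 had several and 12083 had none listed. The row with the highest mean was kept for each symbol, which left 18417 genes. All genes were fitted together in limma 3.58.1 under R 4.3.3, with a mean for each group and 8 residual degrees of freedom (lmFit, eBayes), with two-sided tests, Benjamini-Hochberg adjustment over all 18417 genes and a threshold of 0.05. "Rose" and "fell" mean past it. The fit was tested on simulated data with independent normal errors and far fewer changed genes than were called here. That test does not measure how often the calls here are wrong. Errors of changes are standard errors of the fit.

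The members and lists were chosen with earlier results of these data known. Values of each array are given for up to 6 members per comparison with the largest called difference, and for the catalytic pairs, PSME1 and PSME2; from other lists, up to 4 genes per comparison with the smallest p. Alternatives were scaling, row choice, level filter, variance model, replicate block, the arrays fitted and leaving out each array. Numbers shared by arrays were not taken as pairs. Promoter sequences are RefSeq's (GRCh38.p14), 1 window per symbol; 41 of 47 members matched. The number of arrays limits the precision.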

Additional observations from a re-analysis of the deposited data

Results flagged for a closer look

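The response to ITF2357 differed between UKE1 and HEL for 4 proteasome genes by the test of the difference itself (limma, adjusted over all genes). PSMB10 fell further in UKE1, with a difference of -0.58 (adjusted p = 0.00204). PSMB2 rose in HEL and fell in UKE1, with a difference of -0.37 (adjusted p = 0.00303). The difference was -0.35 for PSMA2 (adjusted p = 0.0172) and -0.31 for PSME4 (adjusted p = 0.016), both of which rose in HEL and were not called in UKE1. All 3 arrays of each treated group lay on the stated side of the untreated arrays where a rise or fall is named.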

How the results depend on the processing

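Of 104 results for single genes, 86 passed the threshold, and 60 of these kept their direction and call in every alternative run. Calls of PSMB5, PSMB9, PSMB10, PSMG3 and PSMA7 in both lines, and the line differences of PSMD5 and PSMB9, were among them. Counts that left the range of 1.5 times were as follows. Genes with a more positive response in UKE1 numbered 0, but 3 after quantile normalization, 2 after median centring, 4 among genes at or above the median level and 3 with a trended and robust variance, and 0 to 1 on leaving out an array. Genes higher in untreated UKE1 numbered 14 after quantile normalization against 8, and all genes called there 7382 when only genes at or above the median level (fewer were tested) were kept. Leaving out an array gave 7 to 13 rises and 10 to 16 falls in HEL, and 7 to 14 falls in UKE1. Same-numbered arrays of a line deviated from their group means with correlations of -0.11 to 0.0001, so the numbers show no pairing. The replicate block left all member counts as they were (11 rises and 16 falls in HEL, 9 and 13 in UKE1). Values that changed sign were all near 0 in at least 1 of the fits. Untreated PSMA4 went from -0.22 to 0.0017 after quantile normalization, and untreated PSME1 from -0.04 to 0.047 (-0.076 to 0.015 on leaving out an array). The response difference of PSMB9 became 0.0083 after quantile normalization. For PSMD5, the drug change after median centring was -0.031 in HEL and -0.011 in UKE1, and the response difference 0.020 (0.0096 after quantile normalization). Leaving out an array gave PSMD5 -0.035 to 0.060 in HEL, -0.089 to 0.084 in UKE1 and -0.110 to 0.063 for the difference, and PSMB7 -0.070 to 0.057 in HEL. The cause was not tested. The table has no detection flag, so the floor of low values such as PSMD5 in UKE1 is unknown.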
